A study of Mus musculus with 18 samples.

Results

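The 48 genes described here encode nucleolar proteins, RNA polymerase I (Pol I) factors and assembly factors that make ribosomes, and they were followed in WEHI-231 cells, a mouse B cell lymphoma line, during stimulation of the B cell receptor (BCR). The genes were taken by symbol from a list of gene names that was chosen with earlier results of these data known. All 48 of them were found among the 55487 genes of the count tables and among the 15318 genes with enough counts to be tested. RNA was sequenced from parental WEHI-231 cells, which carry a wild-type Tfeb gene, and from the TFEB-deficient mutants TFEB KO #A-59 and TFEB KO #B-20, each either left unstimulated (0 h) or treated with F(ab')2 fragments of an antibody to IgM (anti-IgM, 10 µg/ml), which ligates the BCR, for 6 or 18 h. Each of the 9 groups held 2 libraries, 18 in all. The study made such mutants with Cas9 and guides against exon 3 or exon 5 of Tfeb, and each mutant is a line of its own, so that the loss of TFEB and the history of a line cannot be told apart within 1 line. The unstimulated cells of the same line are the control of each stimulation, and the parental libraries are the control shared by both mutants.

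A ribosome begins in the nucleolus, where Pol I transcribes the precursor of the 18S, 5.8S and 28S rRNAs. Small nucleolar ribonucleoproteins (snoRNPs) then modify the precursor, box C/D snoRNPs by methylation and box H/ACA snoRNPs by pseudouridylation, while large sets of assembly factors fold, cleave and export the small and the large subunit. Genes of these factors are known targets of the transcription factor MYC, and growing lymphocytes produce many ribosomes, while ligation of the BCR on WEHI-231 cells is known to stop their growth. The 48 genes fall into 6 roles: 6 genes of Pol I transcription, 5 of abundant nucleolar proteins, 3 of box C/D snoRNPs, 4 of box H/ACA snoRNPs, 16 of small subunit assembly and 14 of large subunit assembly.

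The hexamer CACGTG, the core letters bound by MYC with its partner MAX and by several other factors of the same family, TFEB among them, was searched in the RefSeq promoters (GRCm38.p6, 250 bases before to 50 bases after the start, 300 bases each). The motif reads the same on both strands. Promoters were on hand for 43 of the 48 genes, not for Fbl, Rrs1, Npm1, Bop1 and Rrp12, and 11 of the 43 (25.6%) held CACGTG, against 1171 of 10172 tested genes with a promoter (11.5%), 16 of 88 other ribosome assembly genes (18.2%) and 2187 of 27025 genes in all (8.09%). The octamer TCACGTGA and the 10-base palindrome known as the CLEAR element, which contain CACGTG and are known as sites for TFEB, were in 0 of the 43, against 226 (2.22%) and 82 (0.806%) of the 10172 tested genes. At shares this low, 0 of 43 promoters cannot tell the set from all genes. All sites are shown as 30 bases, read 5′ to 3′ along the gene, with CACGTG in capitals and the distance of its first base from the start, because they show what the 11 genes share and that the letters on either side differ.
Rrn3 (-215, chr16:13780472-13780501, + strand): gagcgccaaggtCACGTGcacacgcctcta
Rrn3 (-48, chr16:13780639-13780668, + strand): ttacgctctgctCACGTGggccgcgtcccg
Mybbp1a (+41, chr11:72441347-72441376, + strand): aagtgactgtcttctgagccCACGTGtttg
Utp4 (+16, chr8:106893643-106893672, + strand): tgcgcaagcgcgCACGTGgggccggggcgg
Utp20 (+38, chr10:88826765-88826794, - strand): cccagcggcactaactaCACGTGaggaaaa
Wdr43 (+18, chr17:71616220-71616249, + strand): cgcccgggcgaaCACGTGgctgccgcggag
Imp4 (-121, chr1:34439696-34439725, + strand): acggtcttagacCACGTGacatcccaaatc
Ltv1 (+29, chr10:13193092-13193121, - strand): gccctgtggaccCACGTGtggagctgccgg
Tsr1 (+25, chr11:74898092-74898121, + strand): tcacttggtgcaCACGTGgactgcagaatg
Pes1 (+3, chr11:3963965-3963994, + strand): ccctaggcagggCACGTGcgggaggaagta
Nop2 (-60, chr6:125131811-125131840, + strand): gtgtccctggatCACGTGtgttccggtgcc
Grwd1 (+35, chr7:45830740-45830769, - strand): aagggccggagtcgCACGTGtgaaaccgga
Of these 12 sites, 8 lay within the 50 bases after the start used for the promoter, in Mybbp1a, Utp4, Utp20, Wdr43, Ltv1, Tsr1, Pes1 and Grwd1. In Wdr43 and Grwd1 that start lies inside the RefSeq span of the gene, so that their sites lie further into the gene by that span. The 250 bases before the start used for the promoter are shown whole for Nop2 and Rrn3, whose sites are upstream, and for Polr1b. Polr1b, the member that moved against the others, has no CACGTG in its 300 bases. This does not set it apart, because 11 of the 43 promoters held the motif and most members that were lower at 18 h lack it too. A link of the motif with the direction of change was not tested. Its promoter start also lies inside the RefSeq span of the gene, so that the last bases shown belong to that span.
Nop2 (chr6:125131633-125131882, + strand): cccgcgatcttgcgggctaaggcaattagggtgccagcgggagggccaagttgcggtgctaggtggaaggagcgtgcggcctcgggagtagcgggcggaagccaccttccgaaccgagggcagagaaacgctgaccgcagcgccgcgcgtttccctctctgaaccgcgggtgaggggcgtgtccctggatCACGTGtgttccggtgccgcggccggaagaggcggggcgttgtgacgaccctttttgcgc
Rrn3 (chr16:13780449-13780698, + strand): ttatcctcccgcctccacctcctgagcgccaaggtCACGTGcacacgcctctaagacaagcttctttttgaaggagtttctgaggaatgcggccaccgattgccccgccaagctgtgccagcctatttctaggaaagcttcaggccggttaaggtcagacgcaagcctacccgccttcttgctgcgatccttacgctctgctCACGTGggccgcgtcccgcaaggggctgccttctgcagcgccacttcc
Polr1b (chr2:129100746-129100995, + strand): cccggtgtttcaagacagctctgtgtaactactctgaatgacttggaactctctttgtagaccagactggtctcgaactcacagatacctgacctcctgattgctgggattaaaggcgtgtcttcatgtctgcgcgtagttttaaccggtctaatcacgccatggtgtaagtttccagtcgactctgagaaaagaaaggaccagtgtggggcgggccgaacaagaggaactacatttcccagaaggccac
A match of these letters is a description, not a measured binding site.

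The libraries held 11223588 to 29655262 counts, with at least 208 counts of each of the 48 genes in each library. Levels are given as CPM, counts per Mio of the TMM-scaled library. Tfeb itself had 79.2 to 99.9 CPM in the 6 parental libraries, 25.9 and 25.5, 30.4 and 29.8, and 35.4 and 40.5 CPM in #A-59 and 34.2 and 39.1, 45.4 and 50.6, and 42.3 and 54.1 CPM in #B-20 at 0, 6 and 18 h, lower in every mutant library than in any parental library, but not absent. The B cell markers summed to 6306 to 13013 CPM. The plasma cell markers had the highest sum of the other lists, 157 to 357 CPM. Among them, Xbp1 had 94.5 to 235 CPM and Irf4 45.7 to 163 CPM, while Sdc1 had at most 4.22 and Prdm1 at most 0.218 CPM. Markers of further cells summed to 41.9 to 147 CPM (7 T cell markers), 1.92 to 27.9 CPM (6 myeloid markers) and 1.18 to 7.18 CPM (4 stromal markers). The erythroid markers summed to at most 0.0653 CPM. The defining markers Cd3e, Cd14, Lyz2 and Dcn were at or near 0, while the kinase Lck had 41.7 to 147 CPM, Pdgfrb 1.12 to 6.50 CPM and Csf1r at most 2.16 CPM. The integrin gene Itgam, a myeloid marker, differed with line and time: it had 1.12 and 1.45 CPM in untreated parental cells (8.38 and 7.36 after 18 h), 7.18 and 9.06 CPM in untreated #A-59 (26.3 and 26.1 after 18 h) and 2.68 and 3.91 CPM in untreated #B-20 (6.25 and 6.53 after 18 h). The part of cells with these markers in the results was not tested. In the second #B-20 library at 6 h, 1 gene without a symbol in the annotation took 2.90% of the counts, against 0.122% to 0.457% elsewhere. The libraries were not stranded, and the exons of 10 of the 48 genes overlap another gene over more than 10% of their length, from 10.5% in Noc2l to 39.4% in Rrs1 and 49.1% in Tsr1, where the counts of both genes cannot be told apart.

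The level of the whole set was lower at 18 h than before in all 3 lines. Summed over the 48 genes, it was 12264 and 12088 CPM in untreated parental cells, 12627 and 12354 CPM after 6 h and 5641 and 5596 CPM after 18 h, so that 46.1% of the untreated mean was left at 18 h. In #A-59 the sums were 10058 and 11342, 8620 and 9227, and 5252 and 5782 CPM, with 83.4% left at 6 h and 51.6% at 18 h. In #B-20 they were 12408 and 13546, 11957 and 12544, and 6428 and 8074 CPM, with 94.4% and 55.9% left. The 18 h libraries of each line lay below all of its earlier libraries, and the #B-20 libraries at 18 h were above all parental and #A-59 libraries of that time and further apart from each other than any other pair. In bulk RNA, fewer cells with a transcript and less of it per cell cannot be told apart, and CPM does not record the RNA content of a cell.

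**Figure D1:**
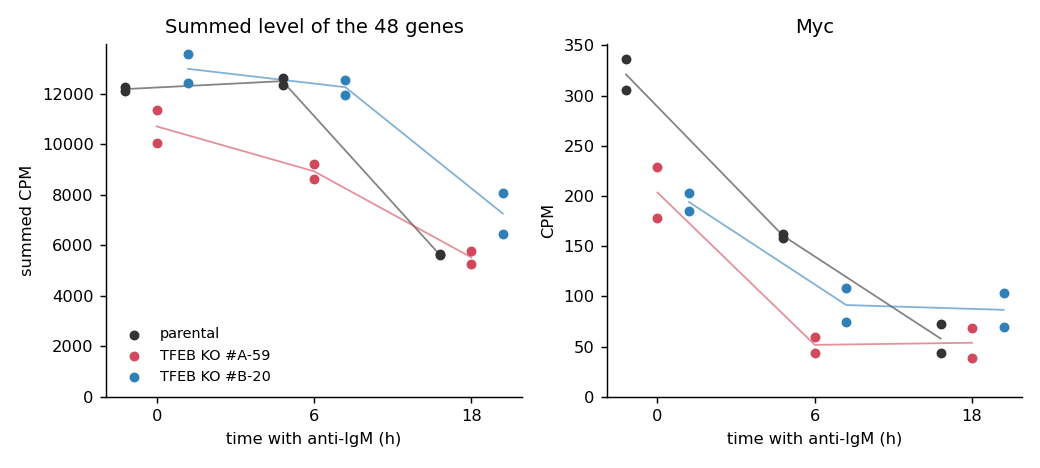
The left panel plots the summed level of the 48 genes (CPM) and the right panel that of Myc (CPM) against time with anti-IgM, 1 point per library, with lines through the means of 2 libraries. The parental sums are at 12354 to 12627 CPM at 6 h and reach 5596 to 5641 CPM at 18 h, while Myc is at 158 to 162 CPM in parental cells at 6 h and at 43.7 to 59.8 CPM in #A-59.

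Called genes are those with a false discovery rate (FDR) under 0.01 in the quasi-likelihood test of edgeR, adjusted after Benjamini and Hochberg over all 15318 genes, and differentially expressed genes (DEGs) are called genes whose log2 fold change also exceeded 1 in either direction. Shares of all genes are given for called genes of this fit, for DEGs at 18 h against 0 h and, at an unadjusted p, for the interactions. Other counts of DEGs or at an unadjusted p have no such share and are a description. The same holds for all counts with DESeq2, under other settings or with a library left out. In parental cells, 46 of the 48 genes were called lower at 18 h than at 0 h, beside 16.2% of all genes tested, and 34 were DEGs, beside 4.75%. The median log2 fold change of the 48 was -1.36, beside 0.04 over all genes. In #A-59, 44 were called lower (all genes 17.1%) and 33 were DEGs (4.59%), with a median of -1.26. In #B-20, 44 were called lower (11.4%) and 25 were DEGs (1.87%), with a median of -1.04. The DEG count of #B-20 came to 9 without its first 18 h library and to 15 without its second untreated library. Polr1b was the 1 gene called higher, in parental cells and in #A-59. Imp3 was not called in any of the 3 lines. From 6 to 18 h, 46 genes were called lower in parental cells (18.9% of all genes), 37 were in #A-59 (17%) and 41 were in #B-20 (11.1%).

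**Figure D2:**
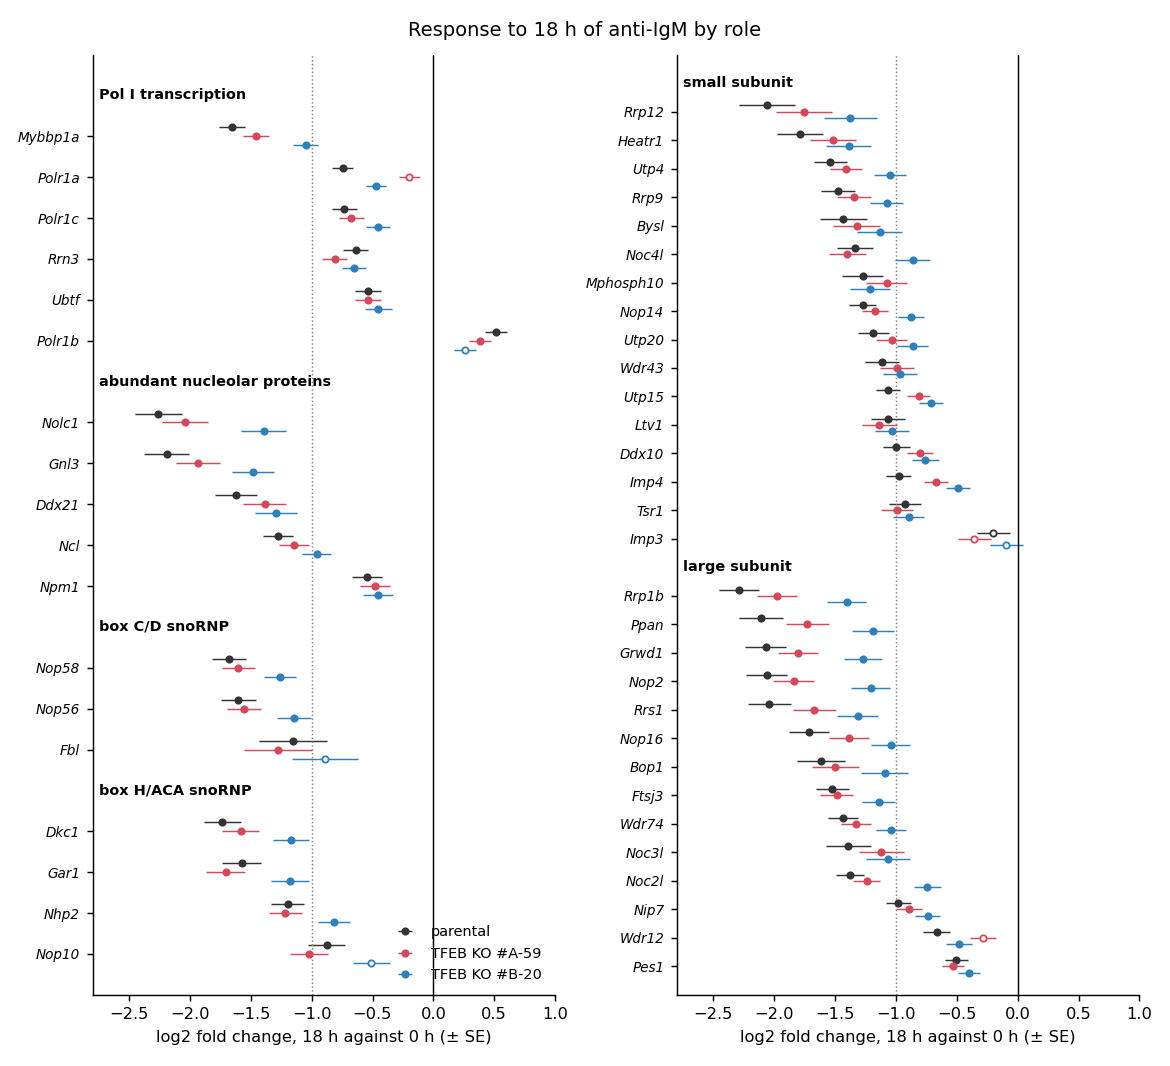
Each point is the log2 fold change of 1 gene at 18 h against 0 h in parental cells (black), #A-59 (red) or #B-20 (blue), with bars of 1 SE, filled where FDR is under 0.01, and grouped by role. The dotted line marks -1. The largest falls in parental cells reach -2.29 in Rrp1b, the Pol I subunits stay between -0.75 and 0.52, and Polr1b alone lies above 0.

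The Pol I transcription genes had the smallest median change of the 6 roles in parental cells at 18 h, -0.69, against -1.23 to -1.62 in the others. Polr1b, the second largest subunit of Pol I (ENSMUSG00000027395, chr2:129100970-129128060, GRCm38), had 485 and 554 CPM in untreated parental cells, 536 and 597 CPM after 6 h and 699 and 786 CPM after 18 h. It had 615 and 646 CPM in untreated #A-59 (788 and 726 after 6 h, 822 and 819.8 after 18 h) and 582 and 616 CPM in untreated #B-20 (658 and 700.0 after 6 h, 683 and 749 after 18 h). Its level rose, by 0.52 ± 0.09 (SE, FDR = 1.42e-04) on the log2 scale in parental cells at 18 h and by 0.38 ± 0.09 (SE, FDR = 0.00219) in #A-59, while the change in #B-20 was 0.26 ± 0.09 (SE, FDR = 0.0338) and was not called. The largest subunit Polr1a fell by 0.75 in parental cells and by 0.47 in #B-20, and Polr1c, a subunit that Pol I shares with RNA polymerase III, fell in all 3 lines, by 0.73, 0.67 and 0.45 in parental cells, #A-59 and #B-20. In #A-59, Polr1a changed by -0.20 ± 0.09 (SE, FDR = 0.0695) and was not called. Rrn3, which brings Pol I to its promoter, fell by 0.64, 0.81 and 0.65, and Ubtf, which binds rDNA, by 0.54, 0.54 and 0.45. The 1 DEG of the role was Mybbp1a, a nucleolar protein that binds MYB (ENSMUSG00000040463, chr11:72441327-72451770). Its level was 713 and 683 CPM in untreated parental cells, 754 and 714 CPM after 6 h and 227 and 217 CPM after 18 h. The mutants had 598 and 576 CPM in untreated #A-59 (581 and 509 after 6 h, 202 and 226 after 18 h) and 654 and 700.4 CPM in untreated #B-20 (665 and 667 after 6 h, 285 and 369 after 18 h). Mybbp1a fell by 3.15-fold in parental cells, 2.74-fold in #A-59 and 2.07-fold in #B-20. Its 18 h libraries overlapped none of the earlier ones in any line.

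All 5 abundant nucleolar proteins fell at 18 h in each line, and they differed widely in extent. Ncl, nucleolin, had the highest level of the 48 (ENSMUSG00000026234, chr1:86344719-86359455), with 2757 and 2571 CPM in untreated parental cells, 3042 and 2953 CPM after 6 h and 1115 and 1083 CPM after 18 h. The values were 1914 and 2353 CPM in untreated #A-59 (1641 and 2232 after 6 h, 919.8 and 1009.5 after 18 h) and 2775 and 2901 CPM in untreated #B-20 (2814 and 2945 after 6 h, 1352 and 1566 after 18 h). Npm1, nucleophosmin (ENSMUSG00000057113, chr11:33152498-33164142), had 912 and 825 CPM in untreated parental cells, 926 and 913 CPM after 6 h and 589 and 604 CPM after 18 h. In the mutants it had 692 and 849 CPM in untreated #A-59 (603 and 854 after 6 h, 534 and 573 after 18 h) and 1027 and 1019 CPM in untreated #B-20 (1024 and 1115 after 6 h, 733 and 756 after 18 h). Npm1 changed least of the 5, by -0.54 ± 0.12, -0.48 ± 0.12 and -0.46 ± 0.12 (log2, SE) in parental cells, #A-59 and #B-20, against -1.28 ± 0.12, -1.15 ± 0.12 and -0.96 ± 0.12 for Ncl. Nolc1, a chaperone of snoRNPs (ENSMUSG00000015176, chr19:46075847-46085543), had 331 and 342 CPM in untreated parental cells, 367 and 351 CPM after 6 h and 78.8 and 62.4 CPM after 18 h. It had 246 and 291 CPM in untreated #A-59 (158 and 171 after 6 h, 57.0 and 73.4 after 18 h) and 291 and 359 CPM in untreated #B-20 (274 and 309 after 6 h, 95.7 and 152 after 18 h). Its fall of 4.79-fold in parental cells was the second largest of the 48 genes, and it was 2.63-fold in #B-20. Gnl3, the GTPase nucleostemin (ENSMUSG00000042354, chr14:31012433-31019131), had 373 and 351 CPM in untreated parental cells, 354 and 328 CPM after 6 h and 87.8 and 71.3 CPM after 18 h. For the mutants the values were 289 and 362 CPM in untreated #A-59 (163 and 204 after 6 h, 77.5 and 92.4 after 18 h) and 455 and 481 CPM in untreated #B-20 (379 and 388 after 6 h, 131 and 204 after 18 h). It fell by 4.57-fold in parental cells (FDR = 1.60e-07), and the #B-20 libraries at 18 h lay above every parental and #A-59 library of that time. Ddx21, an RNA helicase that acts on rRNA, had 519 and 546 CPM in untreated parental cells, 524 and 526 CPM after 6 h and 178 and 168 CPM after 18 h. It had 352 and 459 CPM in untreated #A-59 (216 and 261 after 6 h, 142 and 168 after 18 h) and 541 and 640.0 CPM in untreated #B-20 (489 and 501 after 6 h, 188 and 293 after 18 h), and in #A-59 its libraries at 6 h already lay below all untreated ones.

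**Figure D3:**
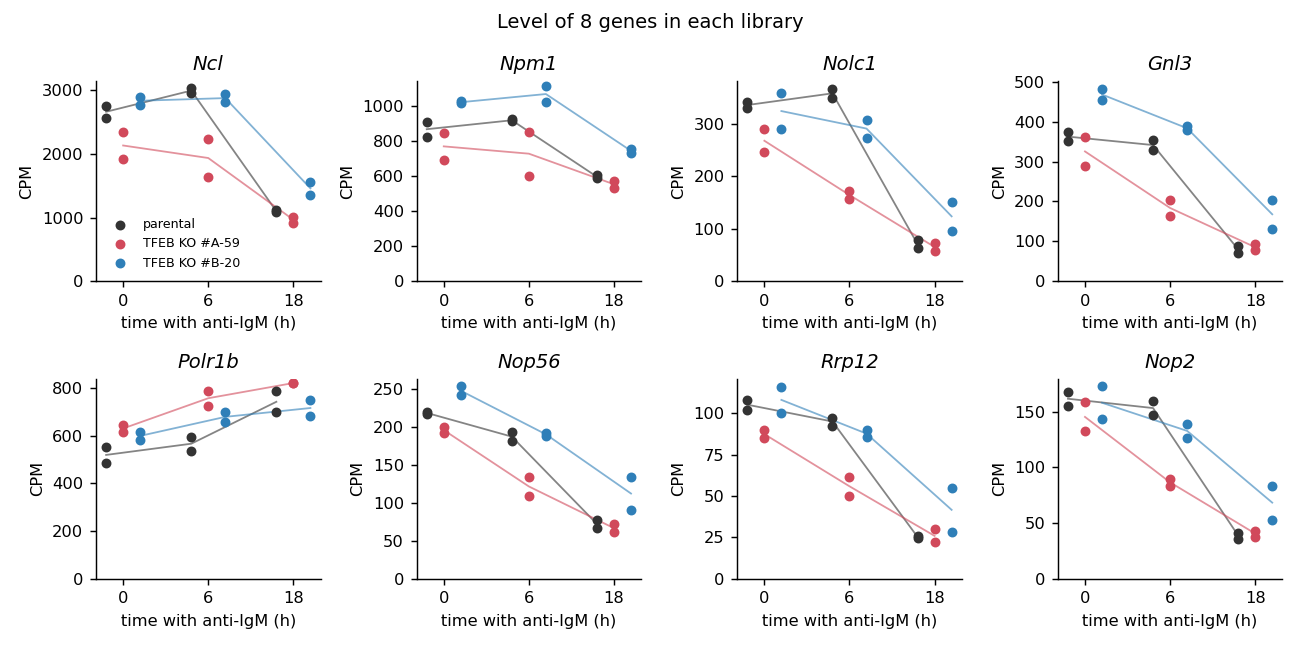
The level (CPM) of 8 genes is plotted against time with anti-IgM, 1 point per library and lines through the means of 2, in parental cells (black), #A-59 (red) and #B-20 (blue). In 7 of the 8 panels the 18 h libraries lie below the untreated ones of the same line, and in the Polr1b panel they lie above.

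All 7 snoRNP proteins were called lower at 18 h in parental cells and in #A-59, and 5 were in #B-20. Among the box C/D proteins, Nop56 had 220.0 and 217 CPM in untreated parental cells, 193 and 181 CPM after 6 h and 77.2 and 67.1 CPM after 18 h. It had 191 and 200.2 CPM in untreated #A-59 (134 and 109 after 6 h, 61.8 and 71.5 after 18 h) and 241 and 254 CPM in untreated #B-20 (188 and 192 after 6 h, 90.2 and 134 after 18 h). In each line its 18 h libraries lay below all earlier ones. Nop58, its partner in the particle, had 329 and 313 CPM in untreated parental cells, 319 and 311 CPM after 6 h and 104 and 96.2 CPM after 18 h. Nop58 had 254 and 309 CPM in untreated #A-59 (158 and 206 after 6 h, 86.2 and 99.2 after 18 h) and 356 and 375 CPM in untreated #B-20 (323 and 328 after 6 h, 131 and 174 after 18 h). Both were DEGs at 18 h in all 3 lines, with log2 fold changes of -1.60 and -1.68 in parental cells and -1.14 and -1.26 in #B-20. Fibrillarin (Fbl), the methyltransferase of the particle, fell by 1.15 in parental cells and by 1.28 in #A-59, and its change of -0.89 ± 0.27 (SE, FDR = 0.0238) in #B-20 was not called. Among the H/ACA proteins, Dkc1, the pseudouridine synthase dyskerin, had 251 and 241 CPM in untreated parental cells, 262 and 257 CPM after 6 h and 74.5 and 73.5 CPM after 18 h. It had 176 and 227 CPM in untreated #A-59 (142 and 146 after 6 h, 60.7 and 73.6 after 18 h) and 265 and 274 CPM in untreated #B-20 (237 and 258 after 6 h, 96.0 and 144 after 18 h). At 18 h the #B-20 libraries lay above those of both other lines. Gar1 had 91.0 and 80.7 CPM in untreated parental cells, 99.1 and 93.2 CPM after 6 h and 29.6 and 28.1 CPM after 18 h. It had 82.4 and 86.5 CPM in untreated #A-59 (76.4 and 70.7 after 6 h, 22.2 and 29.6 after 18 h) and 81.1 and 100.1 CPM in untreated #B-20 (94.0 and 103 after 6 h, 32.3 and 47.8 after 18 h). Its parental libraries at 6 h lay above the untreated ones, and those at 18 h far below. Both fell by more than 1 on the log2 scale in each line, with log2 fold changes of -1.74 and -1.58 in parental cells and -1.17 and -1.18 in #B-20. Nhp2 had 146 and 143 CPM in untreated parental cells, 173 and 166 CPM after 6 h and 63.2 and 63.1 CPM after 18 h. For Nhp2 the values were 124 and 115 CPM in untreated #A-59 (133 and 106 after 6 h, 44.3 and 58.7 after 18 h) and 127 and 151 CPM in untreated #B-20 (151 and 160.0 after 6 h, 70.1 and 87.5 after 18 h), a fall of 1.20, 1.22 and 0.81 at 18 h in parental cells, #A-59 and #B-20. Nop10, the smallest protein of the particle, fell by 0.88 and 1.02 in parental cells and #A-59, and its change of -0.51 ± 0.15 (SE, FDR = 0.0128) in #B-20 was not called.

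Among the 16 small subunit genes, 15 were called lower at 18 h in each line, and 12, 10 and 7 were DEGs in parental cells, #A-59 and #B-20. Rrp12, a factor of subunit maturation and export, had 102 and 108 CPM in untreated parental cells, 97.6 and 92.7 CPM after 6 h and 25.8 and 24.8 CPM after 18 h. It had 85.0 and 90.0 CPM in untreated #A-59 (61.5 and 50.4 after 6 h, 22.1 and 29.8 after 18 h) and 100.1 and 116 CPM in untreated #B-20 (85.6 and 90.1 after 6 h, 28.5 and 54.9 after 18 h). That is a fall of 4.17-fold in parental cells, the largest of the role, and the first #B-20 library at 18 h lay within the range of #A-59 while the second lay above it. The subunits of the early processome followed. Heatr1 had 224 and 247 CPM in untreated parental cells, 218 and 231 CPM after 6 h and 68.0 and 68.6 CPM after 18 h. It had 179.7 and 219 CPM in untreated #A-59 (119 and 137 after 6 h, 59.9 and 79.2 after 18 h) and 250.3 and 276 CPM in untreated #B-20 (222 and 212 after 6 h, 75.2 and 126 after 18 h). The first #B-20 library at 18 h again lay within the range of #A-59, and the second above it. Utp4 had 139.6 and 153 CPM in untreated parental cells, 139 and 139 CPM after 6 h and 50.3 and 50.4 CPM after 18 h. It had 114 and 139 CPM in untreated #A-59 (87.0 and 82.7 after 6 h, 43.4 and 51.7 after 18 h) and 138 and 163 CPM in untreated #B-20 (121 and 128 after 6 h, 61.6 and 83.7 after 18 h). Both belong to the set of processome proteins that is also needed for Pol I transcription, and they fell by 3.45-fold and 2.91-fold in parental cells. Utp15 and Wdr43, of the same set, fell by less, by 1.07 and 1.12 on the log2 scale. Wdr43 had 308 and 314 CPM in untreated parental cells, 263 and 265 CPM after 6 h and 148 and 139 CPM after 18 h. It had 257 and 317 CPM in untreated #A-59 (169 and 175 after 6 h, 137 and 152 after 18 h) and 315 and 354 CPM in untreated #B-20 (259 and 277 after 6 h, 137 and 205 after 18 h). Its libraries were already lower at 6 h than at 0 h in each line, although the change at 6 h was called in #A-59 only (-0.74 ± 0.14, SE, FDR = 0.00185). Utp20 had 231 and 225 CPM in untreated parental cells, 278 and 273 CPM after 6 h and 104 and 95.5 CPM after 18 h. It had 212 and 232 CPM in untreated #A-59 (193 and 232 after 6 h, 100.3 and 117 after 18 h) and 261 and 277 CPM in untreated #B-20 (297 and 277 after 6 h, 123 and 173 after 18 h). In contrast to Wdr43, its level was above the untreated one at 6 h in parental cells, in both libraries, with a log2 fold change of 0.27 ± 0.12 (SE, FDR = 0.178) that was not called. Rrp9, a protein of the U3 snoRNP, had 94.0 and 96.6 CPM in untreated parental cells, 105 and 97.1 CPM after 6 h and 35.1 and 33.5 CPM after 18 h. It had 80.0 and 77.3 CPM in untreated #A-59 (64.3 and 54.2 after 6 h, 27.4 and 34.7 after 18 h) and 83.9 and 97.1 CPM in untreated #B-20 (83.2 and 87.2 after 6 h, 35.8 and 50.1 after 18 h). At 6 h both #A-59 libraries lay below all libraries of the other lines. The 3 proteins that form a complex on the U3 snoRNA had unequal values. Mphosph10 fell by 1.27 ± 0.17 (log2, SE) in parental cells, Imp4 fell by 0.98 ± 0.10, and Imp3 changed by -0.20 ± 0.14 (SE, FDR = 0.257), which was not called. The late factors Bysl, Ltv1 and Tsr1, which ride with the subunit to the cytoplasm, fell by 1.43, 1.07 and 0.92 in parental cells. Nop14 and Noc4l fell by 1.27 and 1.34, and the helicase Ddx10 fell as well (FDR = 8.54e-07).

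Large subunit genes held the largest single change. In parental cells 14 of 14 were called lower at 18 h and 11 were DEGs. In #A-59 13 were called lower and 11 were DEGs, and in #B-20 14 were called lower and 10 were DEGs. Rrp1b (ENSMUSG00000058392, chr17:32036162-32062865) had 191 and 197 CPM in untreated parental cells, 152 and 142 CPM after 6 h and 43.3 and 36.3 CPM after 18 h. It had 143 and 149 CPM in untreated #A-59 (71.7 and 63.1 after 6 h, 34.8 and 39.2 after 18 h) and 159 and 195 CPM in untreated #B-20 (120.0 and 117 after 6 h, 51.5 and 82.1 after 18 h). Its fall of 4.89-fold in parental cells at 18 h (FDR = 2.24e-08) was the largest of the 48 genes. Ppan, a factor of large subunit rRNA processing, had 158 and 164 CPM in untreated parental cells, 134 and 121 CPM after 6 h and 40.3 and 34.9 CPM after 18 h. It had 139.8 and 131 CPM in untreated #A-59 (99.2 and 69.0 after 6 h, 39.2 and 42.3 after 18 h) and 128 and 172 CPM in untreated #B-20 (113 and 114 after 6 h, 54.6 and 76.9 after 18 h). Its #A-59 libraries at 6 h lay further apart than those of the other lines. Grwd1, a chaperone of the ribosomal protein RPL3, had 94.2 and 99.9 CPM in untreated parental cells, 108 and 95.3 CPM after 6 h and 25.1 and 21.4 CPM after 18 h. It had 80.0 and 84.9 CPM in untreated #A-59 (69.2 and 56.0 after 6 h, 20.6 and 26.6 after 18 h) and 93.2 and 109 CPM in untreated #B-20 (88.6 and 90.5 after 6 h, 33.8 and 50.1 after 18 h). At 18 h the #B-20 libraries of Grwd1 lay above those of both other lines. Nop2, which methylates 28S rRNA (ENSMUSG00000038279, chr6:125131883-125144753), had 155 and 168 CPM in untreated parental cells, 159 and 147 CPM after 6 h and 41.5 and 36.1 CPM after 18 h. It had 132 and 158 CPM in untreated #A-59 (89.8 and 83.3 after 6 h, 37.8 and 43.3 after 18 h) and 143 and 173 CPM in untreated #B-20 (126 and 139 after 6 h, 53.1 and 83.6 after 18 h). The groups at 0 h overlapped between the lines, and those at 0 and 18 h did not overlap within any line. Rrs1, which helps to place the 5S particle, had 71.6 and 75.3 CPM in untreated parental cells, 55.7 and 54.7 CPM after 6 h and 18.6 and 17.2 CPM after 18 h. It had 54.0 and 60.8 CPM in untreated #A-59 (27.2 and 27.2 after 6 h, 16.8 and 19.3 after 18 h) and 60.9 and 78.7 CPM in untreated #B-20 (49.1 and 56.7 after 6 h, 21.4 and 34.8 after 18 h). At 6 h its #A-59 libraries lay below every other library of that time. These 5 genes lost between 4.12-fold and 4.89-fold in parental cells, between 3.19-fold and 3.94-fold in #A-59 and between 2.28-fold and 2.65-fold in #B-20, and for none of them did an 18 h library reach an untreated one of its line. Nop16 had 81.3 and 80.6 CPM in untreated parental cells, 80.9 and 75.1 CPM after 6 h and 22.3 and 26.7 CPM after 18 h. It had 73.8 and 74.7 CPM in untreated #A-59 (69.0 and 52.8 after 6 h, 24.9 and 32.0 after 18 h) and 69.9 and 79.2 CPM in untreated #B-20 (56.6 and 71.1 after 6 h, 30.5 and 41.9 after 18 h). The #A-59 and #B-20 libraries of Nop16 overlapped at 18 h. Wdr74 had 69.0 and 75.3 CPM in untreated parental cells, 81.8 and 76.2 CPM after 6 h and 27.9 and 25.7 CPM after 18 h. It had 59.3 and 63.3 CPM in untreated #A-59 (51.1 and 47.7 after 6 h, 23.3 and 25.7 after 18 h) and 66.1 and 74.5 CPM in untreated #B-20 (60.9 and 71.4 after 6 h, 29.5 and 38.8 after 18 h). Both were DEGs in each line.

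The 3 proteins of the PeBoW complex, which is needed for processing of the large subunit rRNA, had unequal values. Bop1 had 168 and 179.7 CPM in untreated parental cells, 191 and 187 CPM after 6 h and 57.6 and 55.6 CPM after 18 h. It had 152 and 149 CPM in untreated #A-59 (159 and 122 after 6 h, 45.9 and 60.8 after 18 h) and 156 and 182 CPM in untreated #B-20 (159 and 182 after 6 h, 59.8 and 99.0 after 18 h). Both parental libraries of Bop1 at 6 h lay above the untreated ones. Bop1 fell by 1.62 ± 0.20 in parental cells, while Pes1 and Wdr12, its partners, fell by 0.50 ± 0.09 and 0.67 ± 0.11 (log2, SE). Pes1 fell in all 3 lines, and Wdr12 was called in parental cells and #B-20 and not in #A-59, where its change was -0.28 ± 0.11 (SE, FDR = 0.0379). The difference between genes was not tested. The most abundant large subunit genes by CPM were Noc2l and Ftsj3. Noc2l had 312 and 311 CPM in untreated parental cells, 298 and 301 CPM after 6 h and 120.1 and 119 CPM after 18 h. It had 297 and 275 CPM in untreated #A-59 (279 and 217 after 6 h, 115 and 127 after 18 h) and 299 and 331 CPM in untreated #B-20 (294 and 301 after 6 h, 169.9 and 207 after 18 h). At 18 h its #B-20 libraries lay above those of both other lines. Ftsj3, a methyltransferase of the pre-60S particle, had 231 and 228 CPM in untreated parental cells, 236 and 225 CPM after 6 h and 83.4 and 76.2 CPM after 18 h. It had 189.6 and 214 CPM in untreated #A-59 (157 and 161 after 6 h, 66.3 and 77.5 after 18 h) and 227 and 258 CPM in untreated #B-20 (204 and 229 after 6 h, 89.2 and 131 after 18 h). At 18 h Noc2l fell by 1.38 ± 0.11, 1.24 ± 0.11 and 0.74 ± 0.11 (log2, SE) in parental cells, #A-59 and #B-20. Noc3l fell by 1.39 in parental cells, and Nip7 fell by 0.98.

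At 6 h most of the 48 genes were not called in any line. In parental cells 0 of the 48 genes were called at 6 h against 0 h with edgeR, beside 4.24% of all genes called lower, with 5 lower and 2 higher at an unadjusted p under 0.05 and 0 called with DESeq2. The median was -0.02, and the range ran from -0.41 to 0.39. In #B-20, 0 were called (0.875% of all genes were called lower), with 11 lower and 0 higher at an unadjusted p under 0.05 and 1 called lower with DESeq2, and the median was -0.13. In #A-59, 14 genes were called lower, beside 3.69% of all genes, and the median was -0.33. The 3 DEGs among them were Rrp1b (-1.11 ± 0.16), Mphosph10 (-1.10 ± 0.17) and Rrs1 (-1.08 ± 0.17, SE). Gnl3, Ddx21, Nop2, Nop56, Nop58, Utp4, Wdr43, Ltv1, Utp15, Tsr1 and Ddx10 were the others, with log2 fold changes between -0.83 and -0.41. None of the Pol I genes and none of the H/ACA proteins was called at 6 h in #A-59, where the change of Nop10 was 0.36 ± 0.15 (SE, FDR = 0.115). The count of 14 depended on single libraries. It came to 3 without the first #A-59 library at 6 h or the second at 0 h and to 7 without the second at 6 h. With a spread estimated from the compared groups alone it came to 1, and 9 genes were then called lower in parental cells at 6 h.

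Before stimulation, no difference between the lines was called. With edgeR, 0 of the 48 genes were called between #A-59 and parental cells at 0 h, where 9.56% of all genes were, with 7 lower and 1 higher at an unadjusted p under 0.05, and 0 were called with DESeq2. Between #B-20 and parental cells at 0 h it was 0, beside 10.7% of all genes, with 3 higher and 0 lower at an unadjusted p under 0.05 and 0 with DESeq2. Between #B-20 and #A-59 at 0 h it was 0, beside 8.41%, with 13 higher and 0 lower at an unadjusted p under 0.05 and 2 called higher with DESeq2. That last count was 2 or 3 without either #A-59 library at 6 h or either #B-20 library at 18 h. The medians were -0.16, 0.07 and 0.22, beside -0.007, 0 and -0.001 over all genes. Shares of all genes at an unadjusted p under 0.05 are not given for these comparisons.

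At 6 h, #A-59 was below parental cells. Of the 48 genes, 27 were called lower, beside 11.3% of all genes, and the median log2 fold change was -0.50. The 5 DEGs were Ddx21 (-1.14 ± 0.17, SE, FDR = 9.83e-05), Nolc1 (-1.13 ± 0.18, SE, FDR = 2.33e-04), Rrp1b (-1.13 ± 0.16, SE, FDR = 3.50e-05), Rrs1 (-1.02 ± 0.17, SE, FDR = 1.48e-04) and Mphosph10 (-1.02 ± 0.17, SE, FDR = 1.51e-04). By role, 2 of 6 Pol I genes, 4 of 5 abundant nucleolar proteins, 2 of 3 box C/D proteins, 2 of 4 H/ACA proteins, 10 of 16 small subunit genes and 7 of 14 large subunit genes were called lower. Ddx21 had 216 and 261 CPM in #A-59 at 6 h against 524 and 526 CPM in parental cells, and Nolc1 158 and 171 against 367 and 351 CPM. Polr1b was the 1 gene called higher (0.42 ± 0.09, SE, FDR = 0.00145). The count of 27 came to 12 without the first parental library at 6 h, to 16 without the second and to 17 without the first #A-59 library at 6 h, and to 16 with a spread from the compared groups alone. Across all genes the log2 fold change rose with GC content in this comparison (Spearman's rho 0.196, over genes, which are not independent), and with a correction for GC content 30 of the 48 were called lower. At 18 h, 0 genes were called lower in #A-59 than in parental cells with edgeR (3 at an unadjusted p under 0.05, 1 with DESeq2) and 2 were called higher, beside 4.75% of all genes. These were Polr1a (0.55 ± 0.09, SE, FDR = 1.22e-04) and Wdr12 (0.44 ± 0.11, SE, FDR = 0.00807), and leaving out any 1 of 11 of the 18 libraries left 1 of them called.

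At 18 h, #B-20 was above parental cells. At 6 h, 0 of the 48 genes were called with edgeR, beside 14.2% of all genes in either direction, with 2 lower and 2 higher at an unadjusted p under 0.05 and 0 with DESeq2. At 18 h, 17 were called higher, beside 5.7% of all genes. The median was 0.47, beside 0.01 over all genes, and 46 of the 48 fold changes were positive. Gnl3 was the 1 DEG, with 131 and 204 CPM in #B-20 against 87.8 and 71.3 CPM in parental cells and a log2 fold change of 1.08 ± 0.18 (SE, FDR = 3.33e-04). Others among the 17 were Grwd1 (0.86 ± 0.17), Nolc1 (0.82 ± 0.19), Nop2 (0.82 ± 0.17), Ppan (0.81 ± 0.18) and Dkc1 (0.70 ± 0.15, SE). The count rested on single libraries. It was 32 without the first #B-20 library at 18 h and 3 without the second, 10 without the first parental library at 18 h and 2 without the second, while the median stayed above 0, at 0.66 and 0.23 without either #B-20 library. With a spread from the compared groups alone it was 6.

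**Figure D4:**
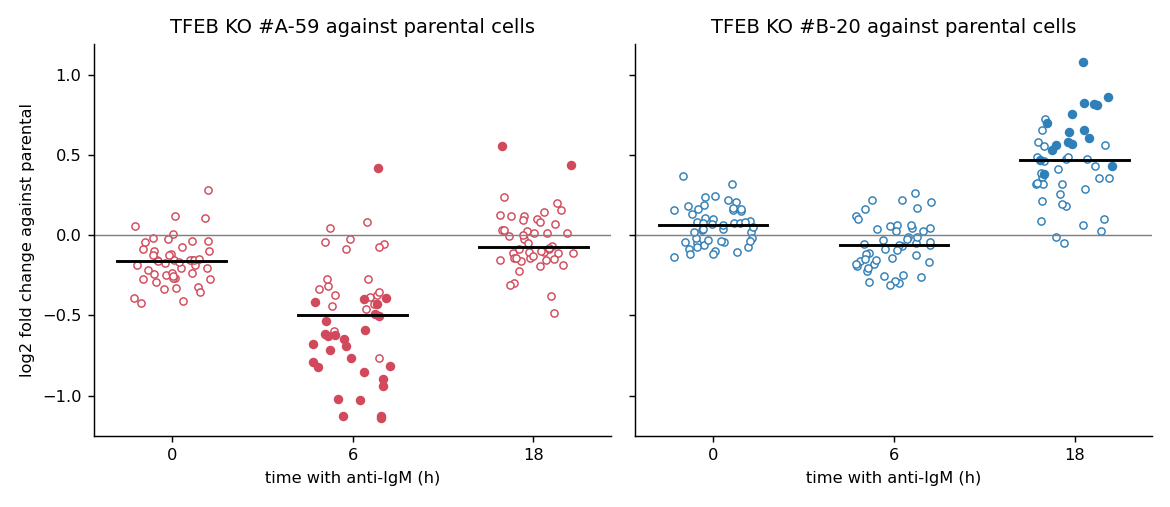
Each point is the log2 fold change of 1 of the 48 genes in #A-59 (left) or #B-20 (right) against parental cells at 0, 6 and 18 h of anti-IgM, filled where FDR is under 0.01, with the median as a bar. The median of #A-59 is lowest at 6 h (-0.50) and that of #B-20 highest at 18 h (0.47).

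The mutants also differed from each other. At 6 h, 21 of the 48 genes were called higher in #B-20 than in #A-59, beside 8.14% of all genes, with a median of 0.47. The 3 DEGs were Gnl3 (1.07 ± 0.17), Ddx21 (1.05 ± 0.17) and Mphosph10 (1.01 ± 0.17, SE), and all 5 abundant nucleolar proteins were among the 21. This count was 6 and 12 without the first and the second #A-59 library at 6 h, and 12 and 10 without the first and the second #B-20 library. At 18 h, 21 genes were called higher in #B-20, beside 8.08% of all genes, with a median of 0.51, and all 4 H/ACA proteins were among them. That count was 35 without the first #B-20 library at 18 h, 3 without the second and 1 without the first #A-59 library at 18 h. With a spread from the compared groups alone the counts were 11 and 4. Fold changes across all genes fell with GC content at 6 h (Spearman's rho -0.453), and with a correction for it 27 genes were called higher at 6 h. The libraries of #A-59 and #B-20 share no sample, and both mutants were made to lack TFEB.

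The difference in response was tested as an interaction of line and time. At 6 h, 0 of the 48 genes were called in #A-59 with edgeR, beside 0.646% of all genes, with 17 lower and 0 higher at an unadjusted p under 0.05 (6.55% of all genes lower, 7.32% higher), and 0 with DESeq2. The median of the interaction was -0.35 and 45 of 48 values were below 0, with the lowest at -0.80. In #B-20 at 6 h, 0 were called (0.183% of all genes), with 0 at an unadjusted p under 0.05 (2.61% of all genes lower, 4.84% higher) and 0 with DESeq2, and the median was -0.14. At 18 h, 0 were called in #A-59 (0.0392% of all genes), with 3 higher and 0 lower at an unadjusted p under 0.05 (408 of all 15318 genes higher, 613 lower) and 1 with DESeq2, and the median was 0.13. In #B-20 at 18 h, 0 were called (0.222% of all genes), with 21 higher and 0 lower at an unadjusted p under 0.05 (1149 of all 15318 genes higher, 930 lower) and 0 with DESeq2, a median of 0.38, and 46 of 48 values above 0. When genes with low counts were kept in the fit, 8 of the 48 were called in #A-59 at 6 h and 11 in #B-20 at 18 h. Without the first #B-20 library at 18 h, 3 were called in #B-20 at 18 h, and without either #A-59 library at 6 h, 1 was. The smallest FDR was 0.117 in #A-59 at 6 h and 0.0667 in #B-20 at 18 h. Over all genes the median of the interaction was -0.001 in #A-59 at 6 h and 0.01 in #B-20 at 18 h. Across all genes both interactions rose with GC content (Spearman's rho 0.235 and 0.286). The part of GC content in these medians was not tested.

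Myc, the known activator of these genes, was given beside them as a regulator. It had 337 and 306 CPM in untreated parental cells, 162 and 158 CPM after 6 h and 72.8 and 43.2 CPM after 18 h. It had 229 and 178 CPM in untreated #A-59 (59.8 and 43.7 after 6 h, 68.7 and 38.9 after 18 h) and 203 and 185 CPM in untreated #B-20 (108 and 74.3 after 6 h, 104 and 69.7 after 18 h). Myc fell by 5.59-fold in parental cells at 18 h (FDR = 1.40e-04) and by 3.78-fold in #A-59 (FDR = 8.09e-04), and its change in #B-20 was -1.16 ± 0.32 (SE, FDR = 0.017) and was not called. At 6 h it fell in #A-59 (-1.97 ± 0.33, SE, FDR = 0.00354), and neither its lower values in parental cells (FDR = 0.0674) nor those in #B-20 (-1.08 ± 0.32, SE, FDR = 0.127) were called. #A-59 was below parental cells at 6 h (-1.62 ± 0.33, SE, FDR = 0.00311), the same comparison in which 27 of the 48 genes were called lower, and the 2 #B-20 libraries at 18 h had 104 and 69.7 CPM, against 72.8 and 43.2 CPM in parental cells (0.59 ± 0.33, SE, FDR = 0.241, not called). From 6 to 18 h Myc was not called in #A-59 (0.05 ± 0.33, SE, FDR = 0.911) or #B-20 (-0.08 ± 0.32, SE, FDR = 0.876), where 37 and 41 of the 48 genes were called lower. Between #B-20 and parental cells at 6 h, where 0 of the 48 were called, Myc differed by -0.81 ± 0.32 (SE, FDR = 0.0997) and was not called. The part of Myc in the levels of the 48 genes was not tested. Max, the partner of MYC, fell in parental cells at 18 h (-0.42 ± 0.10, SE, FDR = 0.00193) and in #A-59 at 6 h (-0.43 ± 0.10, SE, FDR = 0.00699), and was not called at 18 h in #A-59 (FDR = 0.036) or #B-20 (FDR = 0.0132). Trp53, whose protein responds to failed ribosome assembly, fell in all 3 lines at 18 h, by 0.77, 0.88 and 0.39 in parental cells, #A-59 and #B-20. At 18 h it was higher in #B-20 than in #A-59 (0.53 ± 0.10, SE, FDR = 7.95e-04). At 6 h it was called lower in #A-59 (-0.49 ± 0.10, SE, FDR = 0.00359). It was not called at 6 h in parental cells (FDR = 0.0289) or #B-20 (FDR = 0.411). Mdm2, a target of p53, was not called in any of these responses and changed by 0.20 ± 0.09 (SE, FDR = 0.0812) in parental cells at 18 h.

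The fall extended to other genes of ribosome assembly. Of 113 such genes outside the set, all tested, 91 were called lower and 2 higher in parental cells at 18 h, 87 and 3 in #A-59 and 80 and 1 in #B-20, with medians of -0.92, -0.78 and -0.64. Of all genes tested, 16.2%, 17.1% and 11.4% were called lower in these comparisons. The list of the 113 genes was also chosen with earlier results of these data known. In parental cells 8 of 16 other Pol I genes, 34 of 42 small subunit genes, 40 of 44 large subunit genes and 9 of 11 genes of snoRNP assembly were called lower. Mdn1, the giant ATPase that remodels the large subunit, fell by 3.80-fold and Rrp15 by 3.40-fold in parental cells. The 2 genes called higher were Baz2a, which silences rDNA (0.69 ± 0.09), and the kinase Riok3 (0.32 ± 0.07, log2, SE). At 6 h, 53 of the 113 were called lower in #A-59 than in parental cells, beside 11.3% of all genes. At 18 h, 15 were called higher, beside 5.7% of all genes, and 1 lower in #B-20 than in parental cells.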

How the data were processed

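RNA of 18 libraries of WEHI-231 cells was analysed as whole-number read counts per Ensembl gene, which the authors deposited without normalization. As the study's methods state, the libraries were non-stranded mRNA libraries read from 1 end, and the submitters' processing notes name bcl2fastq 2.20.0.422, STAR 2.5, featureCounts 1.5.0-p1 and GRCm38. The handling of reads that map to several genes is not given in the sources used here. The members and lists were chosen with earlier results of these data known. Ensembl identifiers were matched to symbols with GENCODE vM39 (93.2% of 55487), coordinates are those of RefSeq on GRCm38, and promoters are those of RefSeq on GRCm38.p6.

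With edgeR 4.0.16 in R 4.3.3, genes were filtered by filterByExpr, libraries were scaled by TMM, and 1 robust quasi-likelihood model, with a mean per group (9 groups), took in all 18 libraries. Of its 22 comparisons, 9 were responses, 6 compared a mutant with parental cells, 3 compared the mutants and 4 were interactions. Adjustment followed Benjamini and Hochberg within each comparison. The test was checked on simulated counts. Alternatives were DESeq2 1.42.0, other scaling and filters, only the groups compared, GC correction, a replicate block and each library left out. All 48 genes are named by role. Values per library are given for the 20 with the largest change among the DEGs of any comparison and for the 2 of each role with the highest CPM, together with Tfeb and Myc. Max, Trp53 and Mdm2 are given as fold changes. The study describes the libraries of a group as coming from separate experiments, and the labels call them duplicates. The p-values rest on a spread per gene estimated over all 9 groups, not only over the groups compared. The spread within groups was unequal. After 6 h, the mean chi-square per gene between duplicates was 3.57 for parental cells. For #B-20 it was 58.2 at that time, and for #A-59 it was 33.2. This mean has no cap, so that single genes can carry much of it, and it grows with the depth of the libraries. The gene without a symbol had 33194 and 456707 counts in the #B-20 duplicates at 6 h and was not left out. The value of #B-20 is therefore not a measure of the typical gene. Deviations of same-numbered libraries correlated at -0.03 to 0.32 over 36 pairs of groups (median 0.08), over 0.1 in 14 of the 36 and not in every pair, so the numbers were not taken as pairs. Values after ± are standard errors (SE) from the edgeR fit.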

Additional observations from a re-analysis of the deposited data

How the results depend on the processing

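The falls at 18 h kept their counts. The 46, 44 and 44 genes called lower in parental cells, #A-59 and #B-20 came to 45 to 46, 44 to 45 and 34 to 46 under the alternatives other than leaving out a library, and to 44 to 46, 41 to 45 and 38 to 45 with 1 library left out. Differences between the lines and changes at 6 h moved more. No comparison of a single gene changed its direction where it was called.

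When only the compared groups entered the fit, 9 genes were lower in parental cells at 6 h, 1 was in #A-59 and 3 were in #B-20, 22 were lower in #B-20 from 6 to 18 h, 2, 1 and 6 were called at 0 h (#A-59 and #B-20 against parental cells, #B-20 against #A-59) and 4 in #B-20 against parental cells at 6 h, 16 were lower in #A-59 than in parental cells at 6 h, 6 higher in #B-20 than in parental cells at 18 h, 11 and 4 higher in #B-20 than in #A-59 at 6 and 18 h, and 16 were DEGs in #B-20 at 18 h. Without the filter on low counts, 2, 22 and 4 were lower at 6 h in parental cells, #A-59 and #B-20, 3 and 6 were called at 0 h in #A-59 against parental cells and in #B-20 against #A-59, 35 and 36 were higher at 18 h in #B-20 than in parental cells and in #A-59, and 8 and 11 interactions were called in #A-59 at 6 h and in #B-20 at 18 h. DESeq2 called 1 gene lower in #B-20 at 6 h, 2 in #B-20 against #A-59 at 0 h and 1 interaction in #A-59 at 18 h. The cause of these shifts was not tested.

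With the replicate block, 2 genes were called in #B-20 against #A-59 at 0 h, and the other counts stayed within 1.5 times. GC correction gave 2 there as well. Across all genes, Spearman's rho of the log2 fold change with GC content differed between the comparisons. It was -0.399 in #B-20 against #A-59 and -0.344 in #B-20 against parental cells at 0 h. Against 0 h, it was 0.230 in #A-59 at 6 h and 0.228 in #B-20 at 18 h, and in parental cells 0.017 at 18 h. GC correction together with the replicate block gave 1 gene lower in #B-20 at 6 h, 2, 1 and 5 at 0 h, 1 in #B-20 against parental cells at 6 h, 26 higher in #B-20 than in parental cells at 18 h, 32 higher in #B-20 than in #A-59 at 6 h and 1 interaction in #A-59 at 18 h.

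With 1 library left out, the counts lay at 3 to 19 for genes lower in #A-59 at 6 h, 0 to 1 in #B-20 at 6 h, 12 to 33 for #A-59 below parental cells at 6 h, 1 to 2 above at 18 h, 2 to 32 for #B-20 above parental cells at 18 h, 0 to 3 for #B-20 against #A-59 at 0 h, 6 to 29 at 6 h and 1 to 35 at 18 h, 0 to 3 for the interaction of #B-20 at 18 h, and 9 to 32 for DEGs of #B-20 at 18 h.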
